A study of Mus musculus with 8 samples.

Results

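The 8 genes described here, of 5828 listed in the deposited tables, encode developmental transcription factors: Dlx5, Dlx6, Msx1, Sox17, Prrx1, Tbx3, Meis1 and Meis2. They were chosen by symbol with their levels in epithelium and stroma already known, so those levels and contrasts describe them and test nothing about them. The values come from uterine sections of ovariectomized adult mice on a Visium array, on which barcoded spots capture the messenger RNA of the tissue above them and each captured molecule is counted once as a UMI. Each spot covers a small patch of tissue, often with several cells in it. Ezh2cKO females (KO below, EZ fl/fl; Prcre/+, n = 4) carried floxed Ezh2 alleles and a Cre at the progesterone receptor gene, which is active in epithelium, stroma and muscle of the uterus. The WT females (EZ fl/fl, n = 4) carried the same floxed alleles without Cre, and 1 female of each genotype came from each of 4 litters. All were of mixed C57BL/6 and 129SvEv background. They were ovariectomized at postnatal day 71 ± 4, and their uteri were collected at day 112 ± 11, after ovarian hormones had been withdrawn in both genotypes. The authors pooled spots named epithelium or stroma over the animals of a genotype, which leaves 1 value per gene in each of 4 pools and no spread between animals.

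Transcription factors of these families fix where in a developing organ each tissue layer forms, and several stay on in the adult uterus. DLX5, DLX6, MSX1 and PRRX1 bind DNA through a homeodomain. MEIS1 and MEIS2 are homeodomain proteins of the TALE class, which bind DNA together with HOX proteins. SOX17 carries an HMG box and TBX3 a T-box, and TBX3 acts mostly as a repressor. EZH2, the methyltransferase of Polycomb repressive complex 2, keeps developmental regulators silent in tissues that do not use them, chiefly at promoters rich in CpG.

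All 8 genes are annotated as protein-coding on GRCm38. Dlx6 (chromosome 6, 6863334 to 6868568, plus strand) and Dlx5 (6877805 to 6882085, minus strand) face each other tail to tail, with 9236 bases between them. Msx1 (37820485 to 37824583, minus strand) and Tbx3 (119670669 to 119684724, plus strand) lie on chromosome 5. Sox17 (4490931 to 4497354) and Prrx1 (163245119 to 163313710) lie on the minus strand of chromosome 1. Meis1 (chromosome 11, 18879817 to 19018985) and Meis2 (chromosome 2, 115863064 to 116065839) are on the minus strand too. The longest identical stretch between transcripts was 18 bases for Dlx5 and Dlx6 and 32 bases for Meis1 and Meis2. Genes on the opposite strand overlap Dlx6, Sox17, Prrx1, Tbx3 and Meis1, and genes on the same strand overlap Prrx1 and Meis1. The use of strand in counting is not given in the sources used here, and strand would not separate the same-strand partners. Whether reads of the opposite-strand partners were kept apart from those of the 8 genes is thus not known. Reads of the same-strand partners cannot be told apart by strand from those of Prrx1 and Meis1.

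Promoter windows from RefSeq (GRCm38.p6) were matched for 4 of the 8 genes, and the stretch before the start that lies in no GENCODE exon is shown because the deleted enzyme acts chiefly at CpG-rich promoters. Over the full 250 bases before the start, Msx1 was the most CpG-rich of them and Prrx1 the least. With 4 windows, CpG content was not compared between genes of different compartments. The paralogues Meis1 and Meis2 are shown as well. Each reads 5′ to 3′ on the minus strand, with CpG in capitals. The coordinates are chr5:37824586-37824835, chr1:163313711-163313900, chr11:19018986-19019219 and chr2:116064722-116064801.
Msx1: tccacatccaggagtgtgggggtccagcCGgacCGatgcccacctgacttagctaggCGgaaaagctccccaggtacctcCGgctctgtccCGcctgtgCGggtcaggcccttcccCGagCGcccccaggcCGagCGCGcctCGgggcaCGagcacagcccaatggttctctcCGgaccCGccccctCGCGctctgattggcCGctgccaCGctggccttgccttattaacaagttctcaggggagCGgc
Prrx1: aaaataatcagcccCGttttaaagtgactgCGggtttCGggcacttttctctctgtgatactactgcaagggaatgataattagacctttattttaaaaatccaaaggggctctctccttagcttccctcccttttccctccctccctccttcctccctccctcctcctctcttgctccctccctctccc
Meis1: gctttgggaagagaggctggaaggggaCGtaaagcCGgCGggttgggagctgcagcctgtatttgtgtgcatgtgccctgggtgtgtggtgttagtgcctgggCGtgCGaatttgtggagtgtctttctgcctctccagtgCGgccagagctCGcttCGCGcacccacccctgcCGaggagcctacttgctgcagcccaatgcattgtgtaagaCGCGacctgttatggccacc
Meis2: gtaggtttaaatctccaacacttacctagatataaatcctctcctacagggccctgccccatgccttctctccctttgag

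Over the full 250 bases before the start, Msx1 held 20 CpG, and 17.9% of 32851 promoter windows, whose median was 6, held as many or more. Meis1 held 13 (31.5% of windows held as many), Meis2 held 7 (46.3%) and Prrx1 held 4 (62.2%). The Meis2 window lies inside the annotated gene, and its longest stretch outside exons, 80 bases, held 0 CpG. Its count therefore does not describe the outermost Meis2 promoter. The Prrx1 and Meis1 windows lie within longer RefSeq gene models, so their counts need not describe the outermost promoter either. On either strand, the homeodomain core TAATTA was found in the Prrx1 window, against 4.84% of all windows. The SOX core ACAAT, whose other strand reads ATTGT, was found in the Meis1 window and in 27.7% of all windows. TGACAG, the MEIS core, with CTGTCA on the other strand, was in none of the 4 windows and in 15.9% of all. These letters describe the windows and locate no binding site.

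The pools differed in depth. On the authors' size-factor scale the KO epithelium pool was 2.75 times, the WT epithelium pool 2.54 times and the KO stroma pool 2.01 times the depth of WT stroma. Levels below are UMIs divided by these factors and are called scaled UMIs. Ratios are of scaled UMIs with a 95% exact counting interval, which covers counting error only and not the spread between animals. Ezh2 was not analysed here, and the deletion was therefore not checked at its transcript. Lists of textbook markers were used to check the compartments. The 13 of 21 simple epithelium markers present in all 4 pools summed to 4051 scaled UMIs in KO and 4696 in WT epithelium, and to 1240 in KO and 569 in WT stroma, led by Wfdc2, Spint2 and Krt8. The 18 of 20 endometrial stroma markers, led by Dcn, Col3a1 and Lum, summed to 4453 in KO and 3332 in WT epithelium, and to 8563 in KO and 9907 in WT stroma. Markers of each compartment were thus counted in the spots of the other as well. Markers without a value in all 4 pools were left out of these sums. In bulk pools of spots, fewer cells of a type and less RNA per cell cannot be told apart.

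**Figure D1:**
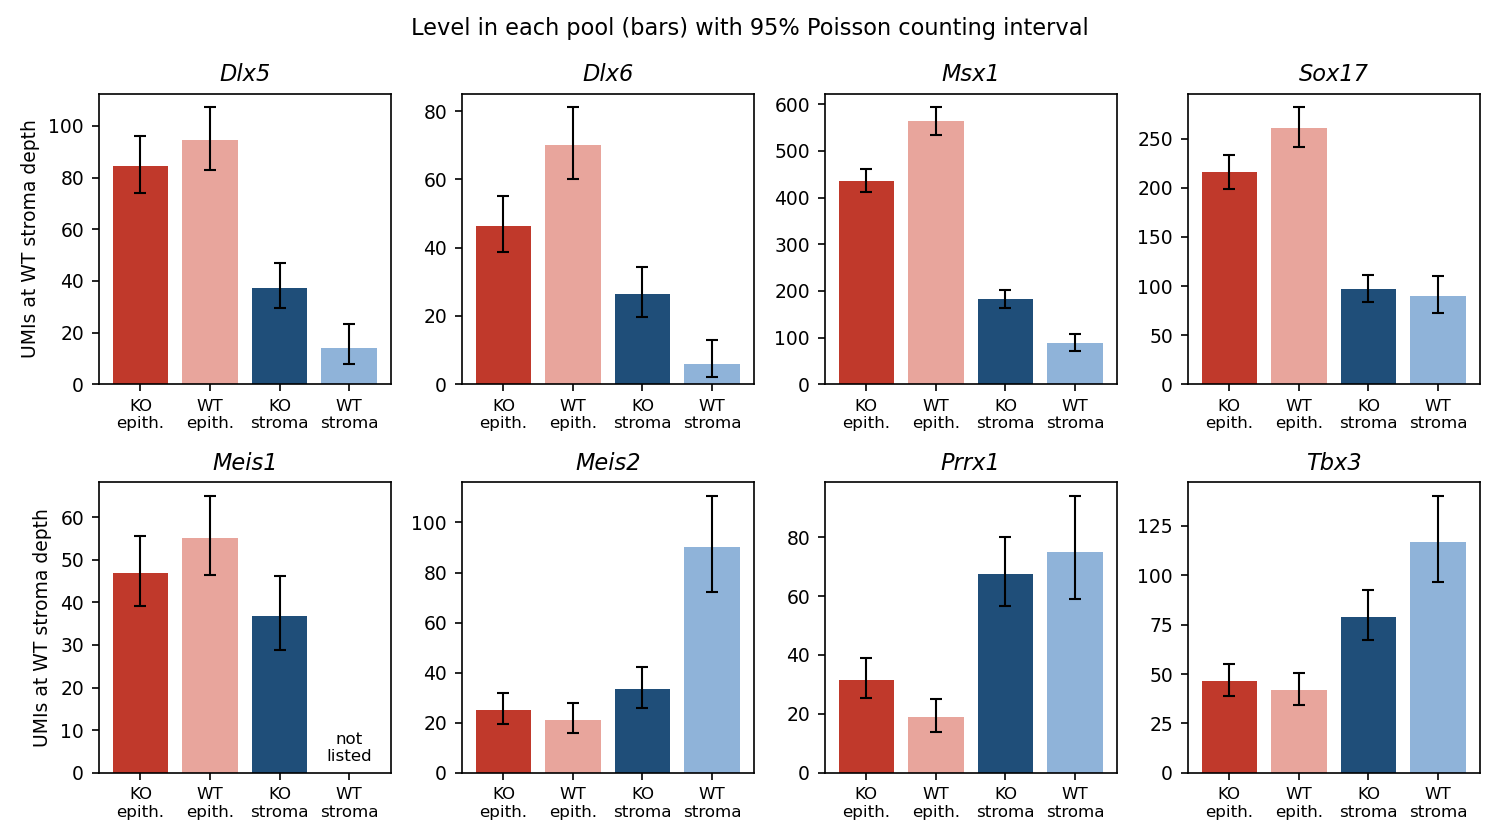
Scaled UMIs (UMIs at WT stroma depth, vertical axes starting at 0) of each of the 8 genes in the KO and WT pools of epithelium and stroma, with bars for the pooled value and lines for the 95% Poisson counting interval. Dlx5, Dlx6, Msx1 and Sox17 are highest in the epithelium pools, Meis2, Prrx1 and Tbx3 in the stroma pools, and Meis1 has no listed value in WT stroma.

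The homeobox genes Msx1, Dlx5 and Dlx6 had their highest levels in the epithelium pools. Msx1, which together with Msx2 readies the mouse uterus for implantation, had 1201 UMIs in KO and 1432 in WT epithelium, and 366 in KO and 88 in WT stroma. The level of Msx1 was 436 scaled UMIs in KO and 563 in WT epithelium, and 182 in KO and 88 in WT stroma. No pools next to each other in level had overlapping counting intervals, with WT epithelium highest and WT stroma lowest. In KO uteri its epithelial level was 2.40 times its stromal level (2.13 to 2.70), and in WT uteri 6.40 times (5.16 to 8.03).

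Dlx5, which with Dlx6 is needed for uterine glands to form in the mouse, had 233 UMIs in KO and 240 in WT epithelium, and 75 in KO and 14 in WT stroma. Scaled to common depth, Dlx5 stood at 84.6 scaled UMIs in KO and 94.4 in WT epithelium, and 37.3 in KO and 14 in WT stroma. Both epithelium pools stood above both stroma pools, and the 2 epithelium pools overlapped in their intervals. Its ratio of epithelium over stroma was 2.27 (1.74 to 2.98) in KO and 6.74 (3.94 to 12.5) in WT. Its neighbour Dlx6 had 128 UMIs in KO and 178 in WT epithelium, and 53 in KO and only 6 in WT stroma. The level of Dlx6 was 46.5 scaled UMIs in KO and 70.0 in WT epithelium, and 26.3 in KO and 6 in WT stroma. All 4 pools of Dlx6 were apart in their intervals. The ratio of epithelium over stroma was 1.76 (1.27 to 2.48) in KO and 11.7 (5.26 to 32.2) in WT, the widest interval among the 8 genes because it rests on 6 UMIs.

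Sox17 is a factor of uterine epithelium, where it acts on Ihh and is needed for implantation in the mouse, and also of endothelium. It had 594 UMIs in KO and 664 in WT epithelium, and 195 in KO and 90 in WT stroma. Scaled to common depth, Sox17 stood at 216 scaled UMIs in KO and 261 in WT epithelium, and 96.9 in KO and 90 in WT stroma. The stroma pools overlapped, and the epithelium pools were apart from them and from each other. Its compartment ratios were the closest to each other of the 7 genes that have both, at 2.22 (1.89 to 2.63) in KO and 2.90 (2.33 to 3.66) in WT. The 5 of 15 blood endothelium markers present in all pools, led by Ramp2, Egfl7 and Cdh5, ran the other way from Sox17. They summed to 276 scaled UMIs in KO and 232 in WT epithelium, and to 469 in KO and 563 in WT stroma. Their part in the Sox17 values was not tested.

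Prrx1, a paired-related homeobox gene of mesenchyme, was a gene of the stroma. It had 87 UMIs in KO and 48 in WT epithelium, and 136 in KO and 75 in WT stroma. The level of Prrx1 was 31.6 scaled UMIs in KO and 18.9 in WT epithelium, and 67.6 in KO and 75 in WT stroma. The stroma pools overlapped and both lay above both epithelium pools. Its ratio of epithelium over stroma was 0.467 (0.353 to 0.616) in KO and 0.252 (0.172 to 0.367) in WT. Tbx3, known for its part in limb and mammary development, had 128 UMIs in KO and 106 in WT epithelium, and 159 in KO and 117 in WT stroma. Scaled to common depth, Tbx3 stood at 46.5 scaled UMIs in KO and 41.7 in WT epithelium, and 79.0 in KO and 117 in WT stroma. Its epithelium pools overlapped, and its stroma pools were apart, with KO lower. The Tbx3 ratio of epithelium over stroma was 0.588 (0.462 to 0.747) in KO and 0.356 (0.271 to 0.468) in WT.

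The TALE paralogues Meis1 and Meis2 have values in common in 3 pools, and within each gene the pools next to each other in level among these overlapped in their counting intervals. Meis2 had 69 UMIs in KO and 54 in WT epithelium, and 67 in KO and 90 in WT stroma. The level of Meis2 was 25.05 scaled UMIs in KO and 21.2 in WT epithelium, and 33.3 in KO and 90 in WT stroma. The WT stroma pool of Meis2 stood apart from the other 3. Its ratio of epithelium over stroma was 0.752 (0.530 to 1.07) in KO, an interval that includes 1, and 0.236 (0.165 to 0.334) in WT. Meis1 had 129 UMIs in KO epithelium, 140 in WT epithelium and 74 in KO stroma. This is 46.8 scaled UMIs in KO and 55.1 in WT epithelium and 36.8 in KO stroma, each overlapping its neighbour. The intervals of WT epithelium (46.3 to 65.0) and KO stroma (28.9 to 46.2), which are not neighbours in level, lay just apart. In KO the Meis1 ratio of epithelium over stroma was 1.27 (0.949 to 1.72), an interval that includes 1 and overlaps that of Meis2. No WT stroma value of Meis1 was listed. Tables list a gene only where a pool's average exceeds 1, which leaves room for up to 69 UMIs of Meis1 in that pool. That is at most 69 scaled UMIs, against 55.1 in WT epithelium. Meis2 had 90 in WT stroma and 21.2 in WT epithelium. By pooled counts Meis1 thus cannot share a WT ratio as low as that of Meis2, but its own ratio cannot be told. The larger averages of Dlx6 in the WT compartment table (1.00), of Dlx6 (1.05) and Meis1 (1.06) in the KO one and of Meis2 in the stroma table (1.06) lay just above the listing limit of 1. Those of Prrx1 in the stroma comparison (0.885), of Meis1 in WT epithelium (0.790) and of Meis2 between the KO compartments (0.751) lay below it.

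**Figure D2:**
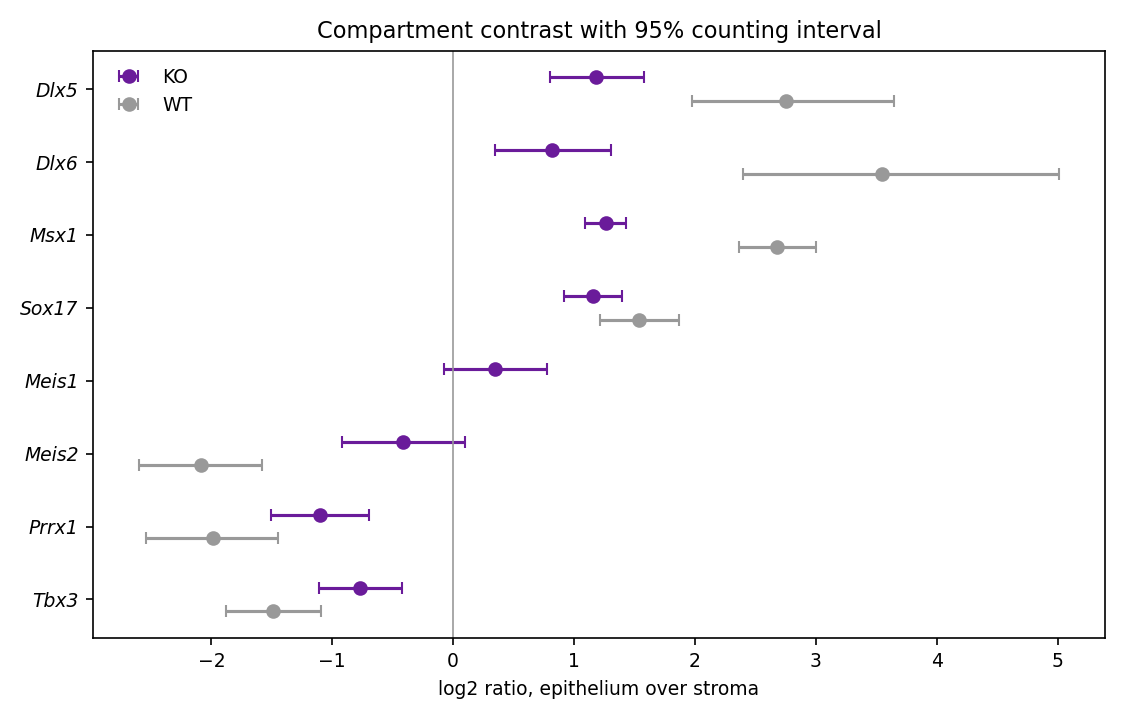
Log2 ratio of epithelium over stroma for each of the 8 genes in KO (upper point) and WT (lower point) uteri, with 95% exact counting intervals. Each of the 7 genes with both values lies nearer to 0 in KO than in WT, and Meis1 has a KO value only.

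The authors' deposited tables called 4 of the 7 listed genes between the compartments of KO uteri, where 9.88% of 2744 listed genes were called. Msx1 (adjusted p = 0.000408 in the authors' deposited table), Sox17 (0.000819) and Dlx5 (0.00475) were called as epithelial and Prrx1 (0.0168) as stromal. Tbx3 (0.151), Dlx6 (0.165) and Meis1 (0.934) were listed and not called. In WT uteri all 7 listed genes were called, where 28.8% of 1769 listed genes were. The authors' deposited adjusted p there ran from 1.37e-11 for Msx1 to 1.95e-05 for Tbx3. Since these contrasts chose the genes, nothing is read from the counts.

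The compartment contrast of every one of the 7 genes was smaller in KO than in WT. For Dlx6 the log2 ratio of epithelium over stroma was 0.82 in KO and 3.54 in WT. For Dlx5 it was 1.18 in KO and 2.75 in WT, for Msx1 1.26 in KO and 2.68 in WT, and for Sox17 1.15 in KO and 1.54 in WT. On the stromal side it was -0.41 in KO and -2.08 in WT for Meis2, -1.10 in KO and -1.99 in WT for Prrx1, and -0.77 in KO and -1.49 in WT for Tbx3. Dlx6 thus had the largest gap among the 7, with a KO minus WT difference of -2.73, and Sox17 the smallest at -0.38. A smaller contrast in KO was common: 1367 of 1755 genes with values in all 4 pools (77.9%) had it. Of the 373 genes whose WT contrast was at least 1 in size on the log2 scale, as it was for these 7, 364 (97.6%) had it. Picking genes by a large WT contrast by itself favours a smaller KO one, so this share is a description only. Whether any gene's contrast differed between genotypes was not tested, since no spread between animals is available.

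**Figure D3:**
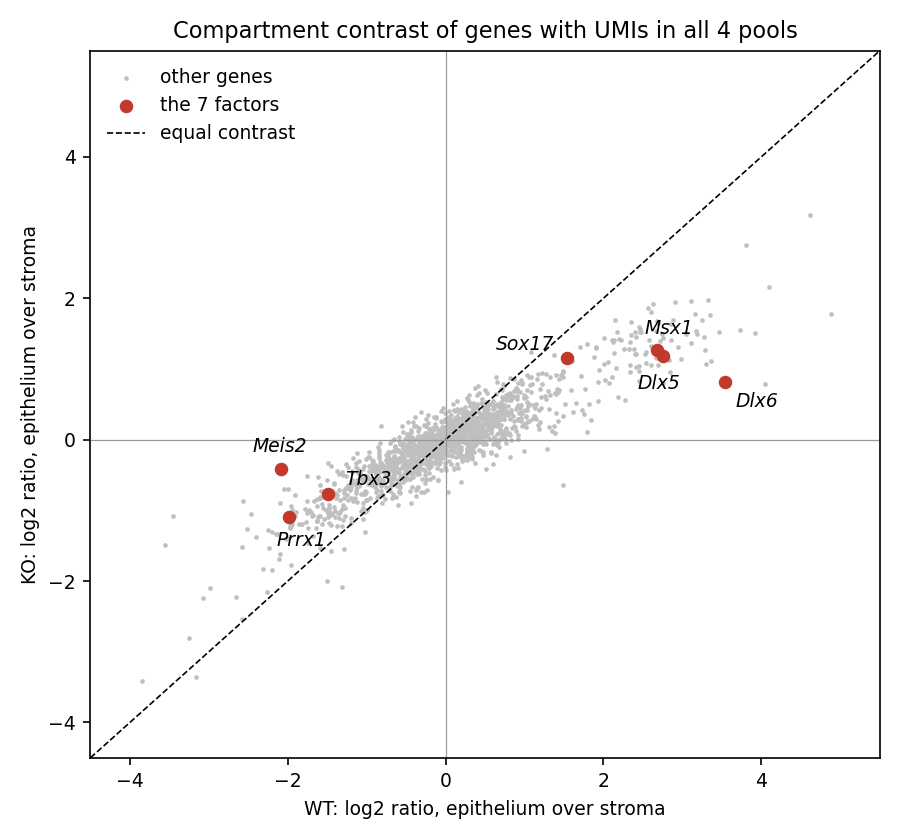
Log2 ratio of epithelium over stroma in KO (vertical) against WT (horizontal) for the 1755 genes with values in all 4 pools, with 7 of the 8 transcription factors in red and a dashed line of equal contrast. The 7 red points lie between the dashed line and the horizontal axis, among most other genes that differ between WT compartments.

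Between genotypes, the authors' deposited tables called none of the 8 genes in epithelium, where all 8 were listed with an adjusted p of 1 and 0.12% of 5811 listed genes were called. In KO epithelium Msx1 stood at 0.774 times the WT level (0.716 to 0.836), Dlx6 at 0.664 times (0.525 to 0.837) and Sox17 at 0.825 times (0.738 to 0.923). Dlx5 stood at 0.896 times (0.745 to 1.08) and Meis1 at 0.850 times (0.664 to 1.09), with intervals that include 1. Of the genes highest in stroma, Prrx1 stood at 1.67 times (1.16 to 2.43), and Meis2 at 1.18 times (0.814 to 1.72) and Tbx3 at 1.11 times (0.855 to 1.46) had intervals that include 1. The median listed gene in this comparison had a log2 ratio of -0.10, against which these values are to be read. The summed simple epithelium markers were at 0.863 times and the summed endometrial stroma markers at 1.34 times their WT level in the same spots. The summed smooth muscle markers were at 0.697 times, with 1 of 13 higher in KO, and the summed blood endothelium markers at 1.19 times, with 4 of 5 higher in KO. Their part in the values of the 8 genes was not tested.

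In stroma, Meis2 was the 1 gene called of the 4 that were listed, with 67 UMIs in KO and 90 in WT stroma, which is 0.370 times the WT level (0.266 to 0.513). Meis2 passed the listing limit only through WT stroma, where it is high (average 1.06, against 0.393 in KO), so its direction is tied to that limit. Its adjusted p in the authors' deposited table was 0.0314, and 1.51% of 1191 listed genes were called. The call was lost at a threshold of 0.01. Meis2 was itself among the lowest 25% of genes by level, so leaving these out removed it and does not test its call. Tbx3 stood at 0.675 times the WT level (0.529 to 0.865, deposited adjusted p = 0.908 in the authors' table) and Prrx1, which was not listed there, at 0.901 times (0.675 to 1.21). Msx1 was at 2.07 times the WT level (1.63 to 2.64), with 366 UMIs in KO and 88 in WT stroma. The authors' deposited table gives Msx1 an adjusted p of 0.369 there. Sox17 stood at 1.08 times (0.835 to 1.40), and the authors' deposited table gives it an adjusted p of 1.

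Dlx5 and Dlx6 are not listed in the stroma comparison, but the other tables give their pooled UMIs. Dlx5 was at 2.66 times the WT level in KO stroma (1.49 to 5.10, 75 UMIs in KO and 14 in WT). Dlx6 was at 4.39 times (1.89 to 12.5, 53 UMIs in KO and 6 in WT). In the same spots all 13 simple epithelium markers were higher in KO, at 2.18 times the WT level in sum (2495 UMIs in KO and 569 in WT). The summed smooth muscle markers (13 of 18 genes, led by Flna, Des and Mylk) stood at 0.540 times, all 13 lower in KO, and the summed endometrial stroma markers at 0.864 times, 11 of 18 higher in KO. The part of these other cell types in the values of Msx1, Dlx5, Dlx6 and Meis2 was not tested.

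**Figure D4:**
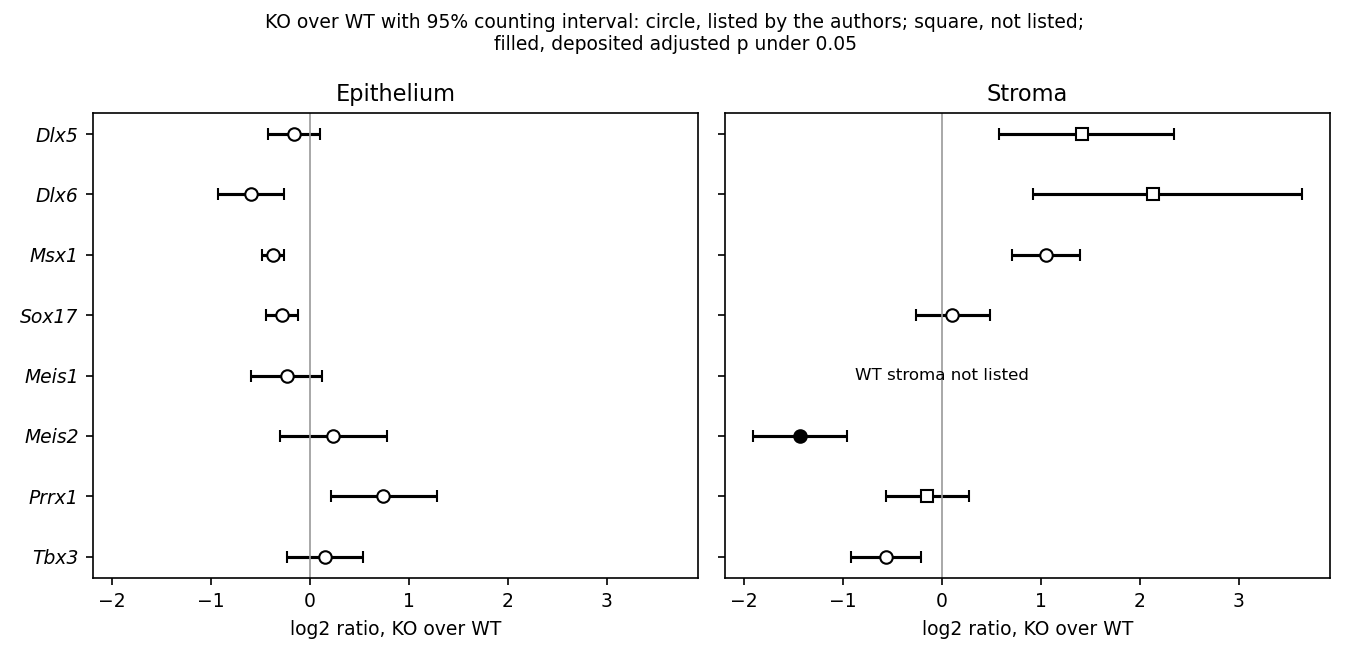
Log2 ratio of KO over WT for the 8 genes in epithelium (left) and stroma (right), with 95% exact counting intervals. Circles are listed in the authors' comparison, squares are taken from pooled UMIs in other tables, and the 1 filled point is Meis2 in stroma, the 1 gene with a deposited adjusted p under 0.05.

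**Figure D5:**
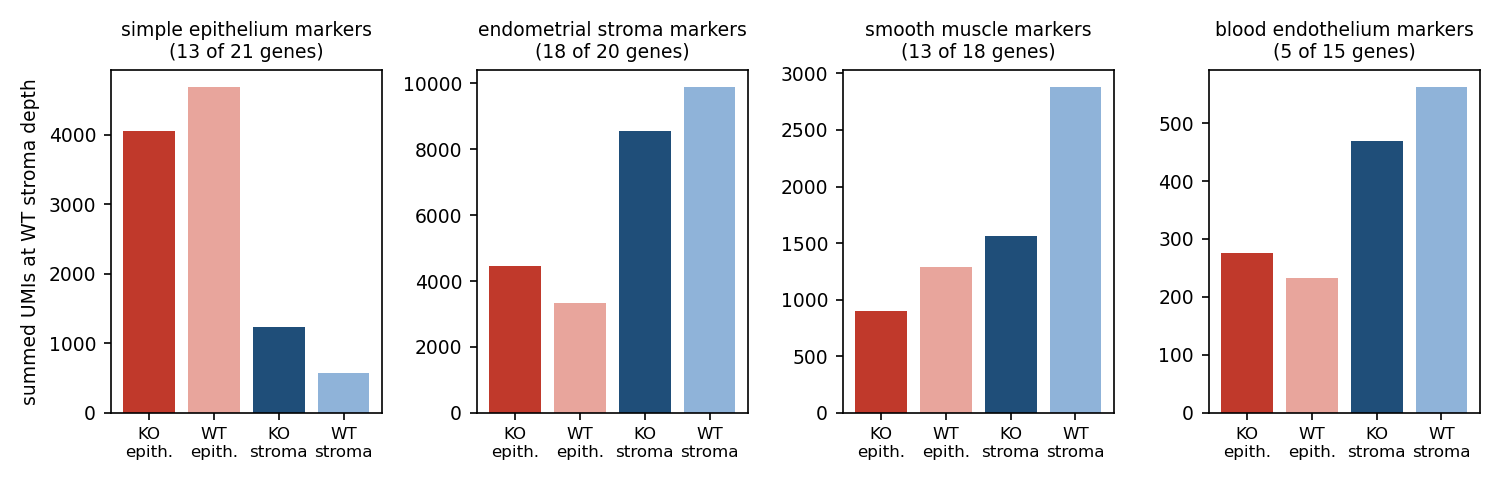
Summed scaled UMIs (vertical axes starting at 0) of the textbook markers present in all 4 pools, for simple epithelium, endometrial stroma, smooth muscle and blood endothelium. Simple epithelium markers reach 1240 in KO stroma against 569 in WT stroma, and smooth muscle markers 1559 against 2884.

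By point estimate, the KO over WT ratio lay on opposite sides of 1 in the 2 compartments for each of the 7 genes with all 4 values. It was under 1 in epithelium and over 1 in stroma for Msx1, Dlx5, Dlx6 and Sox17, and over 1 in epithelium and under 1 in stroma for Prrx1, Tbx3 and Meis2. The counting interval included 1 in epithelium for Dlx5, Tbx3 and Meis2 and in stroma for Sox17 and Prrx1, and of these ratios the authors' deposited tables called only that of Meis2 in stroma. Of all 1755 genes 40.3% had opposite directions, as had 233 of the 373 genes (62.5%) with a WT contrast of at least 1 on the log2 scale. For Msx1 and Dlx6 both counting intervals also lay off 1 in opposite directions, which was so for 5.01% of the 1755 genes. The share among the 373 genes was not taken, and counting intervals narrow with more UMIs. The 5.01% therefore does not show that Msx1 and Dlx6 are unusual among genes like them. The gap between a gene's contrasts equals the gap between its genotype ratios, so the 2 descriptions are not separate results.

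Close patterns across pools were sought by the root mean square difference of log2 levels, centred on each gene's mean over the 4 pools, among 1729 other named genes with at least 50 UMIs on average. Msx1 was nearest to Chdh, a choline dehydrogenase gene (difference 0.02), and Fam107b (0.06). Dlx5 was nearest to Rnf128 (0.05) and to Fxyd3, which encodes a regulator of the sodium pump (0.05). The nearest gene to Dlx6 was Fzd10, a Wnt receptor gene (0.13), followed by Lbp (0.19). Sox17 was nearest to Anxa1 (0.05) and Fuom (0.09). On the stromal side, Prrx1 was nearest to Vim, which encodes the intermediate filament vimentin (0.08), and to the matrix gene Dpt (0.09). Tbx3 was nearest to Sparcl1 (0.06) and to Nr2f2, an orphan nuclear receptor gene (0.06). Meis2 was nearest to Cald1, which encodes the smooth muscle protein caldesmon (0.10), and to Clic4 (0.24). Among the members, Dlx5 and Msx1 were the closest pair (0.15), closer than Dlx5 and its neighbour Dlx6 (0.32). With 4 pools that share animals, these distances describe the pools and have no test.

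Other factors of the same families gave a background for the 8 genes. Of 84 other homeobox genes, 12 were listed between the KO compartments, of which 1 was called for epithelium and 1 for stroma, and 10 between the WT compartments, of which 1 was called for epithelium and 4 for stroma. Over all listed genes, 9.88% were called between the KO and 28.8% between the WT compartments. Hoxb6 was the epithelial one in both, at 2.61 times its stromal level in KO (1.90 to 3.65) and 5.04 times in WT (3.08 to 8.82). Zeb2, known for its part in epithelial to mesenchymal transition, was the gene called higher in stroma in KO (0.482 times) and was called in WT too (0.368 times), with Hoxd9 (0.393 times) and Tshz1 (0.463 times) among the others. The medians of the list were -0.44 in KO and -0.66 in WT on the log2 scale, beside -0.01 in KO and 0.02 in WT for all listed genes. The SOX list had 1 of 12 genes listed in each compartment table, Sox4, which was not called in either, and of 8 other T-box genes none was listed.

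Of 83 other developmental factors, 30 were listed between the KO compartments, with 3 called higher in epithelium and 4 in stroma, and 20 between the WT compartments, with 2 called higher in epithelium and 5 in stroma, beside the same 9.88% in KO and 28.8% in WT over all listed genes. The epithelial ones in KO were Klf5 (2.82 times), Elf3 (2.50 times) and Ehf (2.31 times), and in WT Ehf (5.78 times) and Id2 (2.30 times). Those of the stroma with the largest ratios in KO were Klf9 (0.378 times), Klf2 (0.380 times) and Klf15 (0.422 times), and in WT Klf9 (0.246 times), Klf2 (0.248 times) and Nfia (0.297 times). Klf5, Elf3 and Klf15 had no value in WT stroma and were not listed in WT. Their absence from the WT calls is therefore no difference between genotypes. The list medians were -0.37 in KO and -0.35 in WT.

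Among signals placed with these factors in the uterus, Wnt7a, a Wnt ligand of luminal epithelium, was called higher in KO epithelium than in KO stroma (4.99 times, 3.51 to 7.29). So was the growth factor receptor gene Fgfr2 (2.56 times, 1.95 to 3.38), which was called in WT as well (3.46 times, 2.35 to 5.27). Wnt7a was not listed between the WT compartments, so it was neither called nor left uncalled there. Ptch1, which encodes the receptor of hedgehog ligands, was called higher in WT stroma (0.470 times, 0.379 to 0.583). Between genotypes no gene of these 6 lists was called: 0 of 81 listed in epithelium and 0 of 22 listed in stroma by the authors' deposited adjusted p. Over all listed genes 0.12% were called in epithelium and 1.51% in stroma, so 0 calls in lists of this size say nothing particular about these factors. Msx2 and Ihh, which bear on the 8 genes, were named after their values were seen. Msx2, the partner of Msx1, had 83 UMIs in KO epithelium and 37 in WT epithelium (2.07 times, 1.39 to 3.14); the authors' deposited table gave an adjusted p of 0.741. Ihh, the hedgehog ligand on which SOX17 acts, had 46 UMIs in KO epithelium and 104 in WT epithelium (0.408 times, 0.282 to 0.583); the authors' deposited table gave an adjusted p of 0.637.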

How the data were processed

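Sections of 10 µm from 4 KO and 4 WT uteri were put on Visium slides, per the labels' protocols. Reads were placed on GRCm38 (submitters' processing notes). How spots were named, which aligner ran and which test gave the p-values is not given in the sources used here. Per the file headers, each of the 4 deposited tables holds the authors' pooled average signal per group, a log2 fold change and an adjusted p-value. Whether those p-values rest on animals or on spots is not stated.

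The deposited log2 value was solved for each pool's size factor sum, with 1 added to sum and factor. Average times factor was within 0.01 of a whole UMI number for 100% of genes, and sums agreed between tables for all genes. No unlisted gene with known sums had an average of 1 or more. The size factor scales closed over the 4 tables (1.08 by either route for KO over WT epithelium). Levels are UMIs at WT stroma depth. Intervals are exact Poisson for levels and exact Clopper-Pearson for ratios (95%). Only those for ratios were checked, on simulated Poisson counts without spread between animals. A gene is called where the authors' adjusted p-value is under 0.05. The median UMIs per listed gene were 95 to 241.

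The members, lists and rules were chosen with earlier results of these data known. Named genes are the 8 members, their 2 nearest patterns and up to 3 called genes per list, direction and table. The result of 1 list is not reported here. Since the animals are pooled, no test between animals could be made, in place of which ratios are given. Of 5828 gene IDs, 5826 were found in GENCODE M21. Promoter windows are RefSeq's (GRCm38.p6), and those of Prrx1, Meis1 and Meis2 lie within longer RefSeq gene models. Python 3.11.15, NumPy 2.4.6, SciPy 1.17.1, pandas 2.3.3 and matplotlib 3.10.9 were used.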

Additional observations from a re-analysis of the deposited data

Results flagged for a closer look

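The KO over WT ratio of Dlx6 and of Msx1 took opposite directions in the compartments, with both counting intervals off 1. This was so for 5.01% of the 1755 genes with values in all 4 pools. The share among genes with a WT contrast of at least 1 on the log2 scale was not taken. The 5.01% therefore does not show that Dlx6 and Msx1 are unusual among genes like them. Dlx6 was at 4.39 times the WT level in stroma and 0.664 times in epithelium, a difference of 2.73 on the log2 scale (stroma minus epithelium). Msx1 was at 2.07 times in stroma and 0.774 times in epithelium, a difference of 1.42. Neither difference was tested, since each pool is 1 value, and the Dlx6 stroma ratio rests on 6 UMIs in WT. In the same pools the summed simple epithelium markers stood at 2.18 times the WT level in stroma, with all 13 higher in KO. In epithelium they stood at 0.863 times, with 2 of 13 higher in KO. Their part in the Dlx6 and Msx1 ratios was not tested.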

How the results depend on the processing

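At an adjusted p of 0.01, 0 members were called between genotypes in stroma (Meis2 lost its call), and Prrx1 lost its call between the KO compartments. When the lowest 25% of genes by level were left out, called ones among them included, the stroma comparison of genotypes had 0 called members and the WT compartments had 3, and the genes called on the other factor and signal lists numbered 6 between the KO and 8 between the WT compartments. The other counts of called members and list genes stayed within 1.5 times the main count at these settings and at a minimum log2 fold of 1. Centring on the median listed gene, scaling to the genes present in all 4 pools, and the deposited log2 values left each of the members' ratios within its counting interval, with 0 changes of sign. No paired analysis was possible because each deposited value pools 4 animals, and no single replicate could be left out either. Depth limits Dlx6 and Dlx5 most, with 6 and 14 UMIs in WT stroma.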
